A study of Mus musculus with 20 samples.

Results

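Day 0 was the first of 5 sampling days in a study of Ddx10 during the reprogramming of mouse fibroblasts, and it is described here through its 4 RNA libraries out of 20 in all. Of these, 2 libraries came from cells given an shRNA against Ddx10 (shDdx10) and 2 from cells given an shRNA against luciferase (shLuci), a target the cells do not have. The libraries were taken by their labels alone, and all 15757 genes of the deposited table were tested. Both arms were fibroblasts at passage 2 from embryos of OG2 mice, which carry a fluorescent reporter of Oct4 activity, infected in repeated rounds with retrovirus from Plat-E packaging cells in the presence of polybrene and then kept in iCD1 medium. All groups, the controls included, are labelled as having received the factors Oct4, Sox2, Klf4 and Myc, so that shLuci cells of day 0 are infected cells and not untouched fibroblasts. The other groups, used here for a test of day 0 against later times and for the spread behind every p-value, were the same 2 arms at days 1, 3, 5 and 7, with 2 libraries each. The labels do not say how long after infection day 0 was taken, or which of the shRNAs against Ddx10 each library carried. They call the replicates biological without saying what was kept separate, so the spread behind each p-value is that among these libraries and may be partly technical. The RNA came from the whole population of each well, in which fewer cells of a type and less RNA per cell cannot be told apart.

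Ddx10 is a DEAD-box RNA helicase of the nucleolus, known mainly from the yeast enzyme Dbp4 for its part in the early processing of the RNA of the small ribosomal subunit. The gene lists below were chosen with earlier results of these data known. Among them are 2 sets known to respond quickly to outside signals or to stress. Immediate early genes such as Egr1 and Jun are switched on within minutes of growth factor signalling through ERK without new protein synthesis, and are then damped by inhibitors that the same pathway induces. Genes of heme and iron handling and of the NRF2 antioxidant response, with heme oxygenase at their head, answer free heme, electrophiles and oxidants. Members of both sets passed the test at day 0.

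Levels are normalized read counts as deposited, and fold changes are differences of log2(value + 1), shDdx10 minus shLuci, which understate the change of low genes. The 4 columns of day 0 summed to between 20.1 M and 21.3 M (M, mega), with 641 to 739 genes at 0 and a depth of about 16.2 M to 20.5 M reads estimated from the spacing of low values. Replicates correlated across genes at r = 0.989 in shDdx10 and 0.987 in shLuci. Fibroblast genes were abundant in every library, with Col1a2, a collagen chain, at 131703 and 135705 in shDdx10 against 159679 and 157670 in shLuci (adjusted p = 0.103), and Pdgfrb, a receptor of fibroblasts, at 2346 and 2536 against 3107 and 2911 (adjusted p = 0.222). The delivered factors were high and did not pass the test. Pou5f1 (Oct4) stood at 14930.2 and 15242 in shDdx10 against 15781 and 13741 in shLuci, Sox2 at 7029 and 7516 against 8212 and 6869, Klf4 at 11047 and 11679 against 12521 and 11014, and Myc at 1750.2 and 1791 against 2087 and 1836. Of these 4, 0 passed at an adjusted or at an unadjusted p under 0.05, and viral and cellular copies of them are counted together.

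Ddx10 itself was lower at day 0. The gene (ENSMUSG00000053289, mm10 chr9:53098635-53248053, minus strand) had 313 and 319 normalized read counts in shDdx10 libraries, against 523 and 499.9 in shLuci libraries. Both shDdx10 libraries lay below both shLuci libraries, at a log2 fold change of -0.69 (SE 0.12, limma adjusted p = 0.0072). The later differences were -1.58, -1.31, -0.79 and -0.62 at days 1, 3, 5 and 7, and the day 0 difference minus their mean was 0.38 (SE 0.13, limma adjusted p = 0.084). Without shDdx10 replicate 1 the adjusted p at day 0 was 0.0562.

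Across all genes, limma called 521 of 15757 (3.31%) at day 0 at an adjusted p under 0.05. Of these, 393 (2.49%) were higher in shDdx10 and 128 (0.812%) lower. Changes were mostly small, with a median absolute log2 fold change of 0.48 among called genes, and 53 rises and 34 falls passed 1 on that scale. The median over all genes was -0.02. Scaling each library to its sum, in M, turned the split into 620 higher and 58 lower. Low values are then small against the added 1, which also shrinks their fold changes. The call count rests on the spread borrowed from the later days: in a limma fit of the 4 day 0 libraries alone, 2 genes passed, Egr1 and Hmox1, with 2908 at an unadjusted p under 0.05. It was 100 without shDdx10 replicate 1, 530.0 without shDdx10 replicate 2, 367 without shLuci replicate 1 and 277 without shLuci replicate 2, and 1226 when the 4 libraries of day 1 were left out of the fit.

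A gradient with base composition ran through the day 0 libraries and touched every count that follows. Among 12032 genes with a mean of at least 50, the day 0 log2 fold change fell with the GC content of the transcript (Spearman correlation -0.55 across genes, which are not independent replicates), and rose with transcript length (correlation 0.29). Genes were split by GC content into 5 groups of equal size. In the group with the lowest GC content the median log2 fold change was 0.23, with 225 genes higher and 5 lower, and in the group with the highest it was -0.16, with 5 higher and 49 lower. The correlation with GC content was -0.13, -0.03, 0.10 and 0.14 at days 1, 3, 5 and 7. Replicates of 1 arm also differed along it at day 0, with a correlation of -0.37 for shDdx10 replicate 1 minus replicate 2 and 0.22 for shLuci replicate 1 minus replicate 2. Called genes that rose had a median GC content of 42.8% and a median transcript length of 4584 bases, those that fell 54.7% and 2795 bases, and all genes 49.6% and 3330.0 bases. When the trend of each library with GC content and length was removed, an alternative chosen after seeing the data, 212 genes passed (1.35%), 137 higher (0.869%) and 75 lower (0.476%), of which 171 were among the 521. Counts, medians or single genes after this correction are therefore given with the groups below, though not for list members in the test of day 0 against later days.

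**Figure D1:**
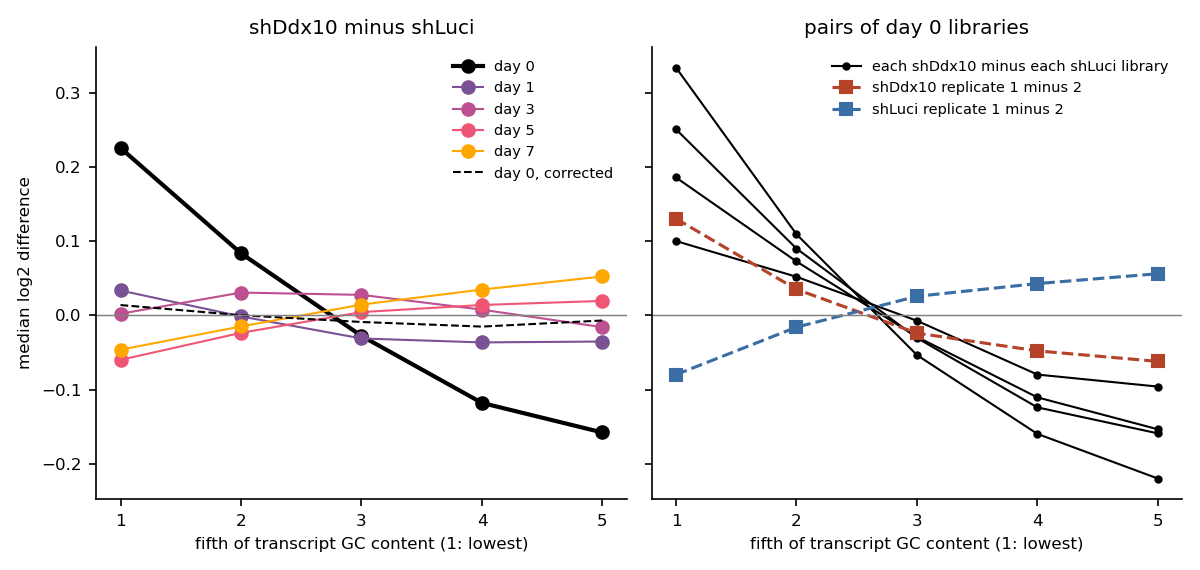
Median log2 difference (y axis) in 5 equal groups of transcript GC content (x axis) over 12032 genes: left, shDdx10 minus shLuci on each day, with the dashed line for day 0 after correction; right, the 4 single pairs of day 0 libraries in black and the replicate differences within each arm dashed. Day 0 runs from 0.23 in the group of lowest GC content to -0.16 in the highest, and the later days stay within 0.06 of 0.

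Immediate early genes were lower in shDdx10 cells. Of 39 list members in the table, 11 fell, against 0.812% of all genes, and the median log2 fold change of the list was -0.32. None rose by limma, adjusted or at an unadjusted p under 0.05, and 23 were lower at an unadjusted p under 0.05, as 9.04% of all genes were (11.7% were higher). Both shDdx10 libraries lay below both shLuci libraries in 33 of the 39 members, as they did in 27.5% of all genes. The list's median GC content was 54.0%, above that of all genes, and with the GC and length correction 9 members fell and the median was -0.22. Fewer members fell when 1 library was left out: 6 without shDdx10 replicate 1, and 7 without shDdx10 replicate 2, shLuci replicate 1 or shLuci replicate 2.

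Egr1, a zinc finger transcription factor and the best known gene of the group, had 1341 and 1319 normalized read counts in shDdx10 libraries, against 3802 and 3930.2 in shLuci libraries. The replicates lay close together and the arms far apart, with a log2 fold change of -1.54 (SE 0.15, limma adjusted p = 0.00015). Its adjusted p was at most 0.00239 when any of the 4 libraries was left out, and the corrected fold change was -1.40 (adjusted p = 0.00081). Nr4a1, an orphan nuclear receptor, had 2068 and 2106 in shDdx10 against 3738 and 4089 in shLuci, a log2 fold change of -0.91 (SE 0.08, adjusted p = 7.89e-05).

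The AP-1 subunits followed the same direction. Jun stood at 3021 and 3072 in shDdx10 against 4638 and 4564 in shLuci (log2 -0.59, SE 0.07, adjusted p = 0.00034), and Junb at 2563 and 2536 against 3909 and 4197 (log2 -0.67, SE 0.10, adjusted p = 0.0029). Jund, the member least dependent on stimulation, was at 3060.2 and 3089 against 3711 and 3815 (log2 -0.29, adjusted p = 0.038), and it did not pass with the GC and length correction (log2 -0.11, adjusted p = 0.467). Fosb, at 75.4 and 78.2 against 147 and 166, sat at the edge of the threshold (log2 -1.02, adjusted p = 0.0498) and was lost with the correction (0.114). The arms did not overlap in these genes, as in all 521 called genes. Jun overlaps the antisense gene Junos, and Junb its neighbour Prdx2, on opposite strands. If strand was not used in the counting, reads of shared bases cannot be told apart.

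Btg2, an antiproliferative gene, had 1920.4 and 1865 in shDdx10 against 2749 and 3146 in shLuci (log2 -0.64, SE 0.07, adjusted p = 0.00041). Ier2, a small nuclear protein, had 1100.0 and 1045 against 1827 and 1621 (log2 -0.68, adjusted p = 0.003). Egr3, a relative of Egr1, was low throughout, at 6.2 and 11.0 against 31.6 and 39.1 (log2 -1.96, SE 0.35, adjusted p = 0.0093). Csrnp1 fell by 0.56 on the log2 scale (adjusted p = 0.0378) and Plk2, a polo-like kinase, by 0.23 (adjusted p = 0.0331). Jun, Junb, Btg2 and Ier2 kept their call without any 1 library, with adjusted p values of at most 0.0209, while Egr3 lost it without shDdx10 replicate 1 (0.0964). Plk2, Csrnp1, Jund and Fosb lost it without each of the 4 libraries in turn, with adjusted p values from 0.081 to 0.232, and Csrnp1 also with the GC and length correction (0.148).

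**Figure D2:**
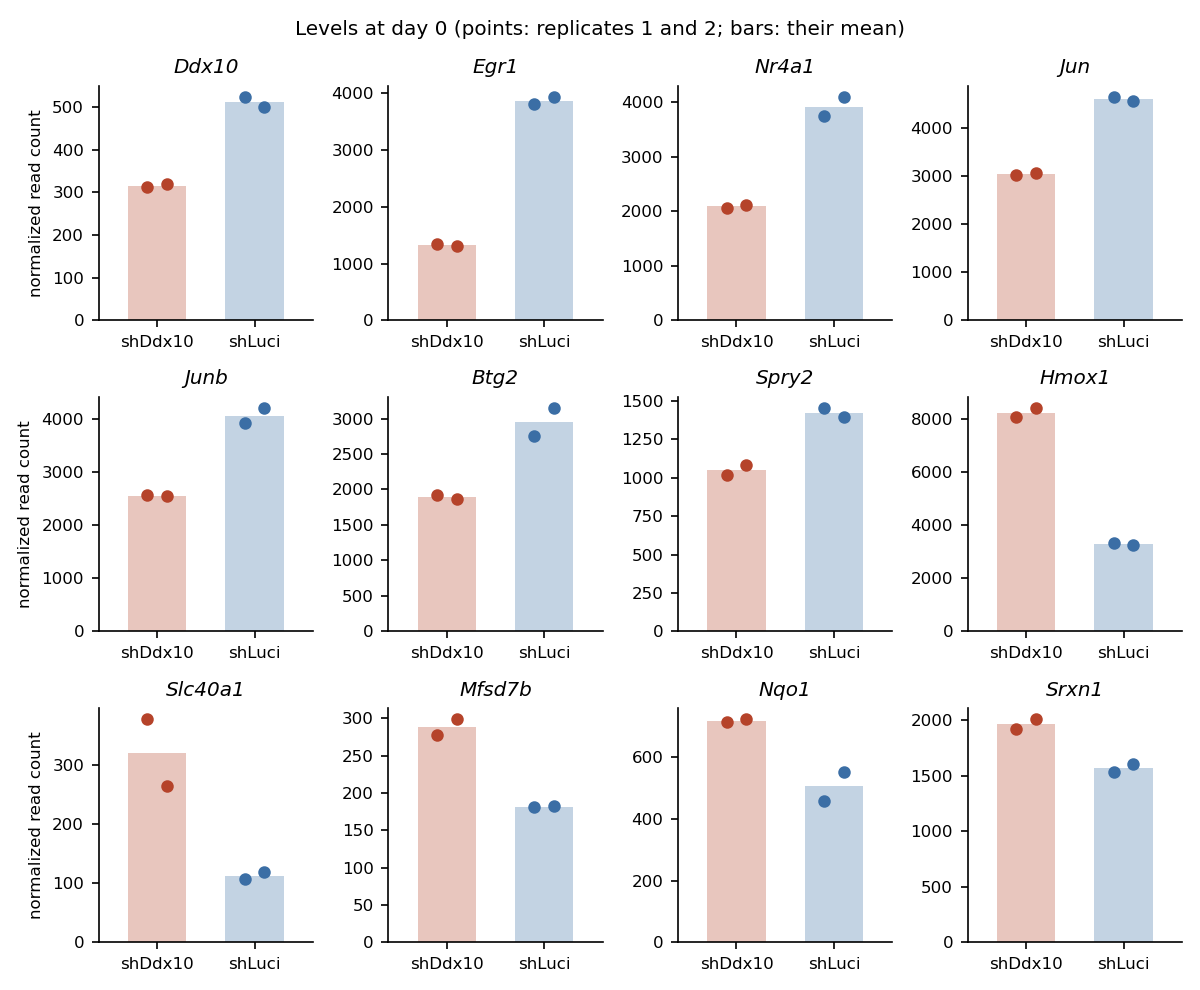
Normalized read counts (y axes, from 0) of 12 genes in the 4 libraries of day 0, shDdx10 left of shLuci; points are replicates 1 and 2 and bars their mean. In all 12 genes the points of one arm lie wholly above or below those of the other, with Egr1 at 1330 and 3866 and Hmox1 at 8254 and 3297 on average in shDdx10 and shLuci.

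Targets and feedback inhibitors of ERK signalling were lower in part. The list also holds targets that are not inhibitors, such as Ccnd1 and Etv4, and of its Spry, Spred and Dusp genes only Spry2 and Dusp5 were called. Of 20 list members, 3 fell, as 0.812% of all genes did, and none rose by limma, with a median of -0.15. At an unadjusted p under 0.05, 8 were lower and 1 higher, against 9.04% and 11.7% of all genes. Spry2, an inhibitor of receptor tyrosine kinase signalling, had 1017 and 1084 in shDdx10 against 1453 and 1394 in shLuci (log2 -0.44, SE 0.07, adjusted p = 0.0073). Phlda1, at 2420 and 2425 against 3467 and 3079, fell by 0.43 on the log2 scale (adjusted p = 0.0098). Dusp5, a nuclear phosphatase of ERK, had 1174 and 1133 against 1820.4 and 1488 (log2 -0.51, SE 0.12, adjusted p = 0.0297). Errfi1, an inhibitor of the EGF receptor named among the largest falls, had 1308 and 1188 against 1894 and 2148 (log2 -0.69, SE 0.10, adjusted p = 0.003). Errfi1 kept its call without any 1 library and Spry2 and Phlda1 lost it without shDdx10 replicate 1 (0.0787 and 0.0718), Phlda1 also without shLuci replicate 1 (0.0573). Dusp5 held only without shLuci replicate 2, and with the GC and length correction it did not pass (0.152), whereas Spry2, Phlda1 and Errfi1 did.

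Promoter sequence is shown for 3 genes of these groups because it holds a match to one of the searched elements. The windows are the 250 bases before the start in RefSeq (GRCm38.p6), printed 5′ to 3′ on the gene's strand: Btg2 at chr1:134079156-134079405 (minus strand), Plk2 at chr13:110394794-110395043 (plus strand) and Dusp5 at chr19:53528895-53529144 (plus strand). Capitals mark the cAMP response element TGACGTCA in Btg2 and Plk2, and in Dusp5 a pair of adjoining CArG boxes, the site of serum response factor, and upstream of them a match to the antioxidant element TGACNNNGC on the other strand.
Btg2: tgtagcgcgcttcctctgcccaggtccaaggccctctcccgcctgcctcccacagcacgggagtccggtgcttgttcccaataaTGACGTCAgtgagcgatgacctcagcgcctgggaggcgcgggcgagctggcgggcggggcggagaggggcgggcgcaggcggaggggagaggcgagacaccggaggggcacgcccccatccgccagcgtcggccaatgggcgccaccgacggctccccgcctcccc
Plk2: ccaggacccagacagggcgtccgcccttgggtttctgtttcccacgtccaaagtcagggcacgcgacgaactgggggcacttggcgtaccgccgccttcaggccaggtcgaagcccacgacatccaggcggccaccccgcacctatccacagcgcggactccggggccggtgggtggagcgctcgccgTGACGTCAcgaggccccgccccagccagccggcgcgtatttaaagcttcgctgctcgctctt
Dusp5: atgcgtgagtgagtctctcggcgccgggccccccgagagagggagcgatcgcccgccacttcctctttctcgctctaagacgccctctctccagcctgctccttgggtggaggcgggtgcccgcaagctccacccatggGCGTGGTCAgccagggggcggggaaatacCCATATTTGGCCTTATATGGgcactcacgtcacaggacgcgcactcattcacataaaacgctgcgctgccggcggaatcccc

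Windows were found for 8 of the 11 immediate early members that fell and for 2 of the 3 called members of the ERK list, with both strands searched. A gene counted as a match if any of its starts held the element, whereas the shares are of single windows. The element TGACGTCA was in 2 of the 8, starting 166 bases before the start in Btg2 and 62 bases before it in Plk2, and in 1.55% of all 32851 promoter windows of that length. A CArG box was in 1.47% of all windows and in 0 of the 8 immediate early genes. Dusp5 held such boxes at 82 and 72 bases before the start. The AP-1 site TGANTCA, in 6.75% of all windows, was found in 1 of the 8, at Csrnp1, where another start also held TGACNNNGC. The E-box CACGTG, in 6.02% of all windows, was in 0 of the 8. A match is a description of letters only, and no match says only that these letters were not in this window.

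Heme and iron genes rose in part, led by heme oxygenase. Of 37 list members, 5 rose (2.49% of all genes did) and 1 fell, and the median of the list was 0.06. Hmox1, which breaks down heme and releases its iron (mm10 chr8:75093621-75100589, plus strand), had 8087 and 8421 normalized read counts in shDdx10, against 3350 and 3245 in shLuci. The arms were separated by more than the whole range within either, with a log2 fold change of 1.32 (SE 0.13, limma adjusted p = 0.00013). Slc40a1, ferroportin, the known exporter of iron from cells (chr1:45908068-45926523, minus strand), had 376 and 264 in shDdx10 against 107 and 119 in shLuci (log2 1.48, SE 0.16, adjusted p = 0.00027). Mfsd7b, listed as Flvcr1 in other annotations and known as a heme exporter, had 278 and 299 against 181 and 183 (log2 0.66, SE 0.11, adjusted p = 0.0082).

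Steap4, a metalloreductase, was near the floor, at 5.16 and 5.50 in shDdx10 against 0 and 1.01 in shLuci (adjusted p = 0.003). Uros, an enzyme of heme synthesis, was lower at 245 and 236 against 345 and 327 (log2 -0.48, limma adjusted p = 0.0259). Uros overlaps Bccip on the other strand, and reads of shared bases cannot be told apart if strand was not used in the counting. With the GC and length correction Hmox1 stood at 1.45 (adjusted p = 5.58e-06), Slc40a1 at 1.30 (0.00034) and Mfsd7b at 0.57 (0.0136), while Uros (0.0946) did not pass. After it 5 members of the list rose, Slc48a1 among them, with a median of 0.08. Hmox1, Slc40a1, Mfsd7b and Steap4 passed without any 1 library, with adjusted p values of at most 0.0344. Uros was lost without each library in turn (0.0625 to 0.128).

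Macrophages and red cell precursors also make heme oxygenase and ferroportin, and their markers were measured in the same libraries. Of 30 macrophage and blood cell markers 24 were in the table, and none passed by limma at an adjusted or an unadjusted p under 0.05, with a median log2 fold change of 0.25, or 0.39 with the GC and length correction, and 21 of 24 above 0. Their summed level was 5113.0 and 5113.3 in shDdx10, against 3554 and 5032 in shLuci, so that shLuci replicate 1 was the low one. In 11 of the 24 markers both shDdx10 libraries lay above both shLuci libraries, against 22.8% of all genes. In 1 marker they lay below, against 27.5% of all genes. Emr1 (F4/80) stood at 90.9 and 81.8 against 57.9 and 121, and Csf1r at 290.3 and 289 against 197 and 278. Of 11 erythroid markers 3 were in the table, and Hbb-y, an embryonic globin, rose (341 and 412 against 248 and 156, log2 0.93, limma adjusted p = 0.0093). Hba-a1 was at 0 in every day 0 library, and Hbb-bs was at 3.63 and 0 in shDdx10 against 0 and 0 in shLuci. The rise therefore rests on Hbb-y alone. A fit without shLuci replicate 1 leaves 1 control library at day 0 and does not measure these cells. The part of these cells in the result was not tested.

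Antioxidant genes known as targets of NRF2 rose in part. Of 39 list members 8 rose, as 2.49% of all genes did, and none fell by limma, with a median of 0.07. At an unadjusted p under 0.05, 11 were higher and 2 lower, against 11.7% and 9.04% of all genes. The largest was Aldh3a1, an aldehyde dehydrogenase, at 152 and 139 in shDdx10 against 69.8 and 43.3 in shLuci (log2 1.39, SE 0.14, adjusted p = 0.0002). Gclc, the catalytic subunit of the first enzyme of glutathione synthesis, had 682 and 773 against 527 and 507 (log2 0.49, SE 0.08, adjusted p = 0.0043). Nqo1, a quinone reductase, had 714 and 723 against 457 and 553 (log2 0.51, SE 0.10, adjusted p = 0.0138). All 3, like every one of the 521 called genes, had arms that did not overlap.

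The remaining 5 rose by less or from a low level. Srxn1, sulfiredoxin, had 1921 and 2010 against 1530.1 and 1610 (log2 0.32, adjusted p = 0.0225), and Txnrd1, thioredoxin reductase, 6098 and 6113 against 5106 and 4657 (log2 0.32, adjusted p = 0.0287). Gsta4, a glutathione transferase, had 1260.0 and 1174 against 892 and 799.6 (log2 0.53, adjusted p = 0.0396), and Esd, esterase D, 12319 and 12030 against 8944 and 10269 (log2 0.35, adjusted p = 0.0362). Gsta3 was near the floor, at 6.08 and 10.9 against 4.59 and 1.53, and shares sequence with other transferases of its class, so that its count is uncertain. With the GC and length correction 8 members rose (0.869% of all genes did), Gsta3 not among them (adjusted p = 0.118) and G6pdx added, and the median was 0.10. Leaving out 1 library left 3 members without shDdx10 replicate 1 or replicate 2 and 4 without shLuci replicate 1 or replicate 2. Aldh3a1 and Gclc passed each time. Nqo1 was lost without shDdx10 replicate 1 (0.0868) or shLuci replicate 1 (0.089), Srxn1 (0.0509 to 0.107) without each of the 4, and Gsta4 (0.0704 to 0.246) likewise. Txnrd1 was lost without either shDdx10 library or shLuci replicate 2 (0.0811 to 0.159), Esd without either shDdx10 library or shLuci replicate 1 (0.0808 to 0.21), and Gsta3 without shDdx10 replicate 2 or shLuci replicate 2 (0.152 and 0.161).

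The window before Srxn1 (chr2:152105274-152105523, plus strand, RefSeq GRCm38.p6) is shown because it is the promoter of this group with more than 1 match; capitals mark the AP-1 site TGAGTCA at 102 and 45 bases before the start.
Srxn1: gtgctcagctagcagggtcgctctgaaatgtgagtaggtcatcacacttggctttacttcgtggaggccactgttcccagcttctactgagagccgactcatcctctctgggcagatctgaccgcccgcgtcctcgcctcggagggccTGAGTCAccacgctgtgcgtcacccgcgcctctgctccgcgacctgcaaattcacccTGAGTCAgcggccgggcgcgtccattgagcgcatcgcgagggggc

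Of the 5 NRF2 members with a window, the antioxidant element TGACNNNGC was found in 2, at Gsta3 and at another start of Txnrd1, and in 10.2% of all windows. The AP-1 site was found in Srxn1 alone of the 5. Of the 6 heme and iron members called, 2 had a window, and Uros held an E-box.

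Chaperones of the heat shock response rose in 4 of 20 members, against 2.49% of all genes, and none fell by limma, adjusted or at an unadjusted p under 0.05. Hsp90aa1, the inducible HSP90, had 28446 and 25382 in shDdx10 against 19360 and 19126 in shLuci (log2 0.48, SE 0.07, adjusted p = 0.0034). Hsph1, a large HSP70 relative, had 5179 and 5329 against 3936 and 3975 (log2 0.41, adjusted p = 0.0112). Chordc1, a partner of HSP90, had 2631 and 2023 against 1533 and 1754 (log2 0.49, adjusted p = 0.0203), and Dnaja1, an HSP40, 5952 and 5789 against 4400 and 4536 (log2 0.39, adjusted p = 0.0219). The median of the 20 was 0.00, with 10 above and 10 below 0. After the GC and length correction 3 rose (0.869% of all genes did), Cryab among them, and the median was 0.12. Chordc1 and Dnaja1, whose transcripts have GC contents of 35.7% and 41.2%, did not pass with the correction (0.471 and 0.413), while Hsp90aa1 (0.0026) and Hsph1 (0.0355) did. Hsp90aa1 passed without any 1 library, and Hsph1 was lost without shDdx10 replicate 1 (0.0639). Chordc1 was lost without shDdx10 replicate 1 (0.216) or shLuci replicate 1 (0.118), and Dnaja1 without each (0.0508 to 0.154).

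**Figure D3:**
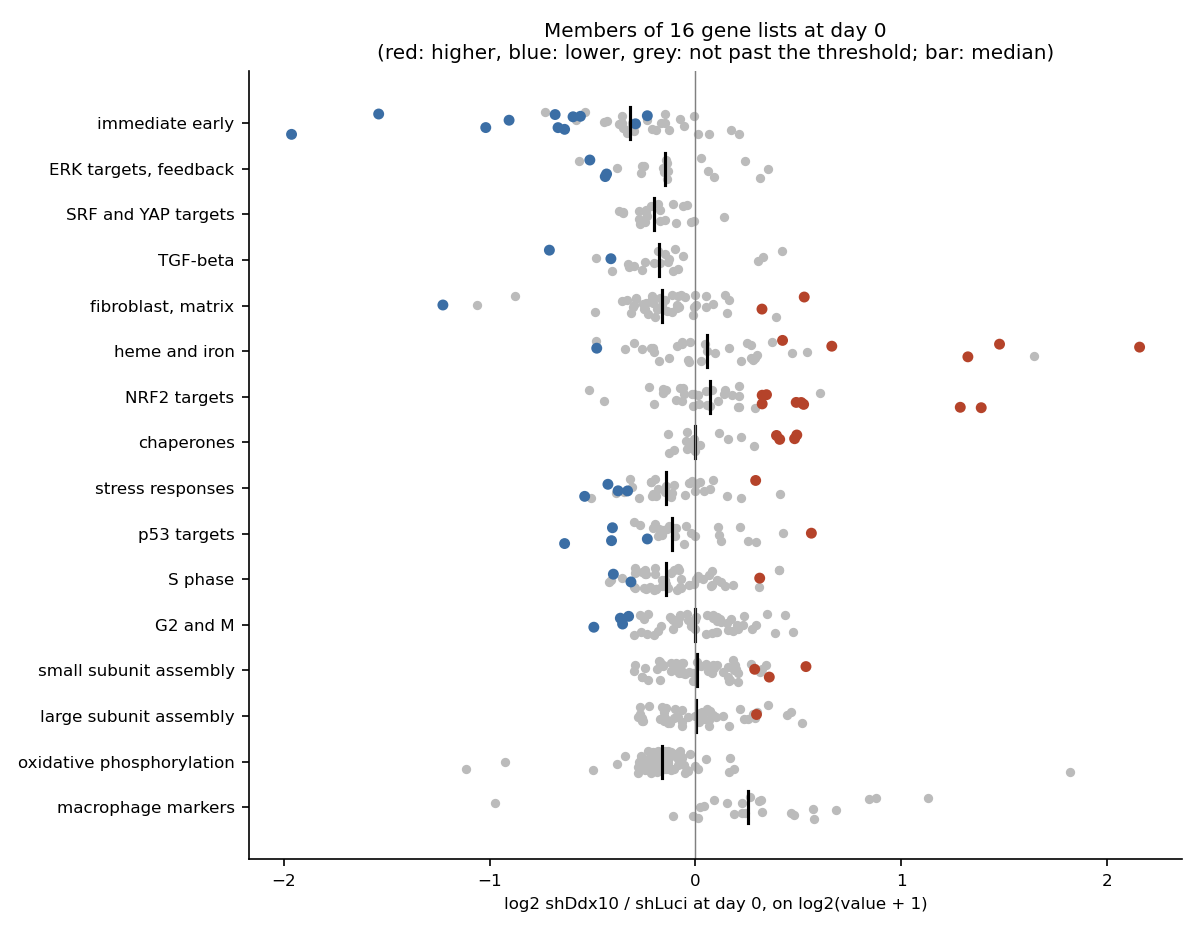
Log2 fold change at day 0 (x axis, shDdx10 over shLuci on log2(value + 1)) of each member of 16 gene lists (rows); red and blue points passed the test as higher and lower, grey points did not, and black bars are list medians. The immediate early row lies to the left with a median of -0.32, and the heme and NRF2 rows have medians near 0 with a few points far to the right.

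Single members of other stress lists were called. In the integrated and unfolded protein responses 4 of 36 genes fell (0.812% of all genes did) and 1 rose, a share near the 2.49% of all genes, with a median of -0.14. Ppp1r15a, the stress-induced subunit of the eIF2 alpha phosphatase, had 842 and 887 in shDdx10 against 1306 and 1207 in shLuci (log2 -0.54, adjusted p = 0.0144). The other 3 falls were enzymes of amino acid and one-carbon supply, Pck2 (log2 -0.43, adjusted p = 0.0218), Shmt2 (-0.38, 0.0418) and Psat1 (-0.33, 0.0433), and the rise was Dnajc3 (0.29, 0.0333), a chaperone of the endoplasmic reticulum. With the GC and length correction Ppp1r15a (0.0239) and Pck2 (0.0446) passed and Shmt2, Psat1 and Dnajc3 did not (0.144, 0.0556 and 0.434). All 5 were lost without shDdx10 replicate 1 (adjusted p 0.118 to 0.299). Ppp1r15a was also lost without shLuci replicate 1 (0.0722), Pck2 without shLuci replicate 2 (0.0996), Shmt2 without either shLuci library (0.11 and 0.13), Psat1 without replicate 2 of either arm (0.0999 and 0.201) and Dnajc3 without each library.

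Among 30 targets of p53, 4 fell and 1 rose, against 0.812% and 2.49% of all genes, with a median of -0.12. Btg2 and Plk2 are members of this list as well as of the immediate early one. Pidd1, at 411 and 425 against 540 and 567 (log2 -0.40, adjusted p = 0.0218), and Gdf15, a secreted stress factor, at 422 and 418 against 567 and 548 (log2 -0.41, adjusted p = 0.0258), were the other falls. Trp53inp1, a p53-induced nuclear protein, rose to 3163 and 2979 in shDdx10 against 2029 and 2127 in shLuci (log2 0.56, adjusted p = 0.011). After the correction Pidd1 and Gdf15 did not pass (0.199 and 0.356) and Trp53inp1 did (0.0464), and without shDdx10 replicate 1 all 3 were lost (0.0953 to 0.157). Pidd1 was also lost without shLuci replicate 2 (0.0939) and Gdf15 without each library.

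Some genes of DNA replication and mitosis were called. Over all genes, 2.49% rose and 0.812% fell, and 11.7% were higher and 9.04% lower at an unadjusted p under 0.05. Of 53 S phase genes 2 fell and 1 rose, with a median of -0.14, and 38 of the 53 had negative values. Mcm3 and Mcm7, subunits of the replicative helicase, had 1418 and 1454 against 1955 and 1833 (log2 -0.40, adjusted p = 0.0373) and 1774 and 1936 against 2373 and 2234 (log2 -0.31, adjusted p = 0.0434). Rfc1, the large subunit of the clamp loader, rose by 0.31 (adjusted p = 0.0363). Of 53 genes of G2 and mitosis 4 fell and none rose by limma (7 higher and 11 lower at an unadjusted p under 0.05), with a median of 0.00 and 27 of 53 below 0. They were Gtse1 (log2 -0.35, adjusted p = 0.0122), Cdca3 (-0.49, 0.0218), Kif22 (-0.36, 0.0285), a mitotic kinesin, and Plk1 (-0.32, 0.0397), the main mitotic polo-like kinase. Of these 7 genes only Kif22 passed with the GC and length correction (0.0387), and all 7 were lost without shDdx10 replicate 1 (0.0639 to 0.306). Mcm3 and Plk1 were lost without each library, Mcm7 and Kif22 without either shLuci library (0.0543 to 0.179), Gtse1 without shLuci replicate 1 (0.0543), Cdca3 without shLuci replicate 2 (0.125), and Rfc1 without replicate 2 of either arm (0.131 and 0.173).

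Genes of ribosome assembly, the process Ddx10 serves, had list medians near 0 at day 0, with some members called. Over all genes, 2.49% rose and 0.812% fell, and 11.7% were higher and 9.04% lower at an unadjusted p under 0.05. Of 55 factors of the small subunit other than Ddx10, 3 rose and none fell by limma (11 higher and 4 lower at an unadjusted p under 0.05), with a median of 0.01. They were Mphosph10, a component of the early small subunit particle, at 698 and 583 against 443 and 436 (log2 0.54, adjusted p = 0.0155), Riok2, a kinase of late maturation, at 786 and 733 against 568 and 616 (log2 0.36, adjusted p = 0.0372), and Wdr43 (log2 0.29, adjusted p = 0.0481). Of 52 factors of the large subunit, Ncl, nucleolin, rose (10656 and 10045 against 8299 and 8574; log2 0.29, adjusted p = 0.0299), and of 24 genes of RNA polymerase I and the nucleolus, Top1 rose (log2 0.38, adjusted p = 0.0159). Of 32 other DEAD-box helicases Ddx3x (log2 0.43, adjusted p = 0.0064) and Ddx42 (0.29, 0.0338) rose. With the GC and length correction Mphosph10 passed (0.0358), as did Riok2 (0.0488), which has no GC value and is uncorrected there, while Wdr43, Ncl, Top1, Ddx3x and Ddx42 did not (0.0566 to 0.794), and Ddx24, on the large subunit and DEAD-box lists, was lower. Without shDdx10 replicate 1 all 7 were lost (0.0773 to 0.292). Riok2 and Wdr43 were lost without each library, Ncl, Top1 and Ddx42 without either shLuci library (0.0509 to 0.148), and Mphosph10 without shLuci replicate 2 (0.0594).

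Among the 14 largest rises and 14 largest falls of genes with a day 0 mean of at least 50, several have no list in common. Nebl, nebulette, an actin-binding protein of striated muscle (chr2:17343909-17731464, minus strand), had 123 in both shDdx10 libraries against 35.8 in both shLuci libraries (log2 1.75, SE 0.16, adjusted p = 7.89e-05; corrected 1.47). Abcb1a, a drug efflux pump, had 116 and 91.2 against 31.8 and 25.9 (log2 1.81, SE 0.25, adjusted p = 0.0025), although its reads may be split with the close paralog Abcb1b. Tab3, an adaptor of the TAK1 kinase, had 430.5 and 627 against 167 and 171 (log2 1.61, adjusted p = 0.0036). Nebl, Abcb1a and Tab3 passed without any 1 library and after the GC and length correction.

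The largest value belonged to Lyrm9, a small LYR motif protein, with 368 and 602 against 20.8 and 108 (log2 3.27, SE 0.69, adjusted p = 0.024). Its control libraries differed widely from each other, and the call was lost without shDdx10 replicate 1, shDdx10 replicate 2 or shLuci replicate 1 (0.102 to 0.125) and after the correction (0.0538). Abca8b, a lipid transporter, had 104 and 100.3 against 55.2 and 40.3 (log2 1.10, adjusted p = 0.0034), and Entpd1 (CD39), an ectonucleotidase, 115 and 86.0 against 55.3 and 40.4 (log2 1.06, adjusted p = 0.0171). The zinc finger genes Zfp2, Zfp60 and Zfp667 stood at 1.04, 1.01 and 0.97 on the log2 scale (adjusted p = 0.003, 0.00027 and 0.0037). Arhgap26, a GTPase activator, (log2 1.09, adjusted p = 0.0471) did not pass after the correction (0.126). Without shDdx10 replicate 1, Entpd1 (0.171) and Arhgap26 (0.367) were lost, Entpd1 also without shLuci replicate 2 (0.101) and Arhgap26 without shLuci replicate 1 (0.262).

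Large falls outside the immediate early group included genes of quite different roles. Eno2, the neuronal enolase, had 151 and 102 in shDdx10 against 323 and 246 in shLuci (log2 -1.18, SE 0.19, adjusted p = 0.0058), and it was the single member of 25 glycolysis genes that passed. Tmem107, a protein of the base of the cilium, had 46.2 and 42.5 against 103 and 119 (log2 -1.31, adjusted p = 0.0152). Tnfaip6, a secreted hyaluronan-binding protein, (log2 -0.81, adjusted p = 0.0241), Tgfbi, a matrix protein induced by TGF-beta, (-0.71, 0.0075), Lrrc17 (-0.70, 0.0175), Prpf40b, a splicing factor, (-0.78, 0.0115) and Adamts14, a procollagen protease, (-0.69, 0.0144) also fell. All of these passed after the GC and length correction, with adjusted p values of at most 0.037. Ggt7 (log2 -1.03, adjusted p = 0.0258) and Dnm1, dynamin 1, (-0.69, 0.046) did not (0.103 and 0.116), and each overlaps another measured gene on the other strand, Acss2 and Ciz1. Of this group only Eno2 passed without any 1 library. Tgfbi was lost without shLuci replicate 2 (0.0504), Adamts14 without shDdx10 replicate 1 (0.109) or shLuci replicate 1 (0.0585), and Prpf40b, Lrrc17 and Tnfaip6 without shDdx10 replicate 1 (0.119 to 0.184) or shLuci replicate 2 (0.0594 to 0.109). Tmem107 was lost without 3 libraries (0.0505 to 0.0814), and Ggt7 and Dnm1 without each of the 4.

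**Figure D4:**
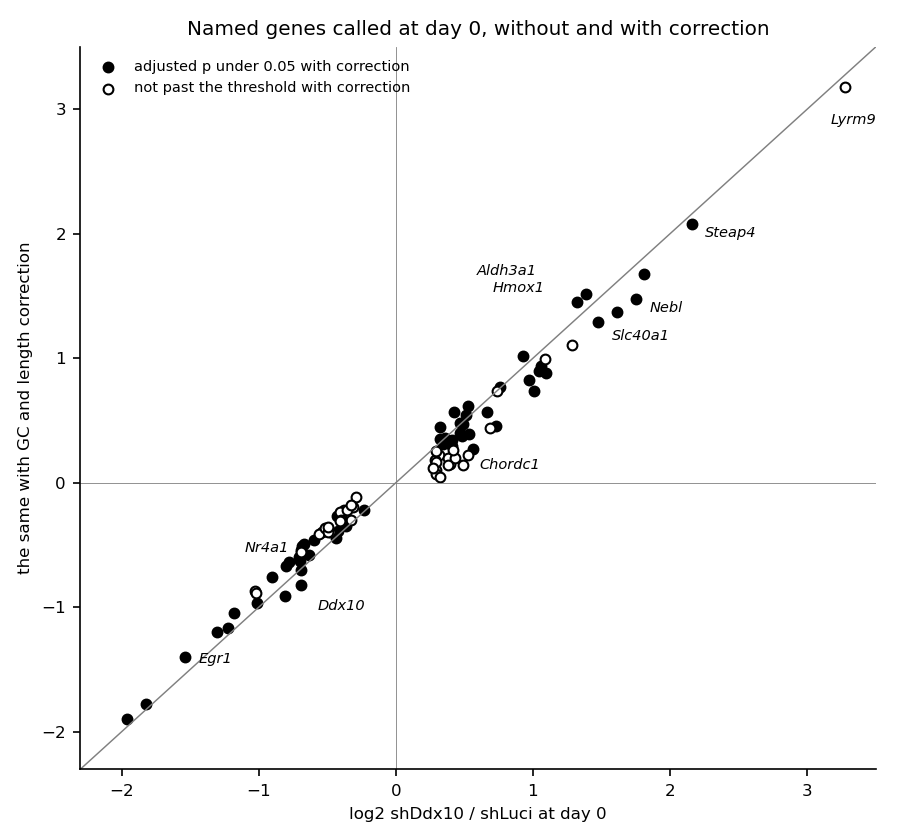
Log2 fold change at day 0 with the GC and length correction (y axis) against that without it (x axis) for the named genes called at day 0; filled points passed with the correction, open points did not, and the line marks equal values. Egr1, Hmox1, Slc40a1 and Nebl lie near the line and stay called, while Lyrm9 and Chordc1 are open.

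Lists of energy supply and of protein synthesis and turnover had medians a little below 0, with few members called. The shares of all genes were 2.49% higher and 0.812% lower, or 11.7% and 9.04% at an unadjusted p under 0.05. Of 82 nuclear genes of oxidative phosphorylation, limma called none (1 higher and 13 lower at an unadjusted p under 0.05). Their median was -0.16, with 76 below 0, and -0.07 with the GC and length correction. Of 77 mitochondrial ribosomal proteins none passed by limma either (5 lower at an unadjusted p under 0.05, median -0.10), and with the correction Mrps9 was lower and the median was -0.04. Of 38 proteasome subunits none passed by limma (7 lower at an unadjusted p under 0.05, median -0.07), and with the correction Psmb7 was lower and the median was -0.04. Of 53 translation initiation factor genes 2 rose, Eif4e1b and Eif3a, with a median of -0.06, and with the correction 1 was higher and 1 lower. Glycolysis genes had a median of -0.21, with 23 of 25 below 0 and Eno2 called lower, and the median was -0.10 with the correction.

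Genes of fibroblast identity and of the other cell types the wells could hold were called in few members. The shares of all genes were 2.49% higher and 0.812% lower, or 11.7% and 9.04% at an unadjusted p under 0.05. Of 47 fibroblast and matrix genes 37 had values below 0, and 15 were lower and 3 higher at an unadjusted p under 0.05, with a median of -0.16, or -0.12 with the GC and length correction. Of these, Dcn, decorin, rose (1023 and 866 against 706 and 603; log2 0.53, adjusted p = 0.0233), as did Zeb2 (log2 0.32, adjusted p = 0.04998), and Dpt, dermatopontin, fell from a low level (8.26 and 4.39 against 18.4 and 13.1; adjusted p = 0.0226). With the GC and length correction Dpt alone of the 3 passed (0.0464; Dcn 0.473, Zeb2 0.859). Zeb2, Tgfb3, Ppp1r15a, Shmt2, Mcm7, Dnaja1, Jund and Mfsd7b overlap measured genes on the other strand. Reads of shared bases cannot be told apart there if strand was not used in the counting. Of 22 TGF-beta genes Tgfbi and the ligand Tgfb3 fell, Tgfb3 at 3425 and 3381 against 4461 and 4588 (log2 -0.41, adjusted p = 0.0155; 0.0633 with the correction). Among 22 targets of serum response factor and YAP none passed by limma (7 lower and 1 higher at an unadjusted p under 0.05), with a median of -0.20, or -0.13 with the correction. Dcn, Zeb2 and Tgfb3 were lost without shDdx10 replicate 1 (0.0942 to 0.246) or shLuci replicate 2 (0.0648 to 0.191), Zeb2 and Tgfb3 also without shDdx10 replicate 2 (0.106 and 0.0508) and Zeb2 without shLuci replicate 1 (0.0665), and Dpt without shDdx10 replicate 2 or shLuci replicate 1 (0.124 and 0.128).

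Of 35 genes of the pluripotency network other than the delivered factors, L1td1 rose (185 and 233 against 159 and 96.6; adjusted p = 0.0405) and Tdh, threonine dehydrogenase, fell at levels under 5 (2.02 and 2.15 against 3.85 and 4.92; adjusted p = 0.00074). L1td1 did not pass with the correction (0.0877) and was lost without shDdx10 replicate 1, shDdx10 replicate 2 or shLuci replicate 2 (0.0921 to 0.215). Among 27 epithelial genes Celsr1, a cadherin of planar polarity, fell (22.7 and 18.7 against 43.4 and 41.8; log2 -1.01, SE 0.12, adjusted p = 0.00074), and it passed without any 1 library and with the correction. Single markers of other cell types also rose, as 2.49% of all genes did. Of 11 endothelial markers (median 0.03, 5 below 0) the receptor Tek rose (log2 0.47, limma adjusted p = 0.0287). Of 12 neural markers (median 0.09, 3 below 0) the neurofilaments Nefl and Nefm rose (0.47 and 0.42, 0.0218 and 0.046). Nefl and Nefm overlap on opposite strands. Of 5 markers of fat cells (median 0.02, 2 below 0) the lipase Lpl rose (0.41, 0.0218). Of 43 interferon-stimulated genes Xaf1 rose (202 and 197 against 117 and 118; log2 0.76, adjusted p = 0.0115) and Oas2 fell (3.63 and 3.01 against 19.8 and 10.2; adjusted p = 0.0056), and of 27 NF-kB targets Icam1 fell (223 and 224 against 317 and 316; log2 -0.50, adjusted p = 0.0159). Tek, Nefl, Nefm, Lpl, Xaf1 and Icam1 were lost without shDdx10 replicate 1 (0.088 to 0.269), and Lpl and Icam1 with the correction (0.206 and 0.0669). Nefm was lost without each library, Tek without replicate 2 of either arm (0.123 and 0.137), Nefl without shLuci replicate 1 (0.129), Lpl without shLuci replicate 2 (0.129) and Icam1 without either shLuci library (0.0539 and 0.0552).

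Whether the day 0 difference was another one than that of the later days was tested by the difference at day 0 minus the mean of the differences at days 1, 3, 5 and 7. Most named genes were picked by their day 0 values, and the test uses the same day 0 libraries. For those genes its values are therefore not independent of the choice. This contrast passed for 1179 genes (7.48%), 603 above 0 (3.83%) and 576 below (3.66%). These counts, and those of the lists in this test, are without the GC and length correction. Among the days, the gradient with GC content was strongest at day 0. Without shDdx10 replicate 1 of day 0 the number was 307, and without shLuci replicate 1 it was 604. Of the 521 genes called at day 0, 4 were called in the same direction at day 1, when 23 genes were called in all (0.146%; 0.0254% higher and 0.121% lower), and 1 in the opposite one. At day 3 the same counts were 48 and 13 of 751 called (4.77%; 2.51% higher and 2.25% lower). At day 5 they were 44 and 36 of 1376 (8.73%; 5.83% higher and 2.9% lower), and at day 7 they were 30 and 20 of 972 (6.17%; 4.65% higher and 1.52% lower).

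The immediate early fall at day 0 differed from the later differences in part of the list. Egr1 differed by -1.54, -0.04, -0.65, 0.84 and 0.12 on the log2 scale at days 0, 1, 3, 5 and 7, and day 0 minus the later mean was -1.61 (SE 0.17, limma adjusted p = 0.0003). Nr4a1 differed by -0.91, -0.03, -0.02, 0.33 and 0.26 (day 0 minus later -1.04, SE 0.09, adjusted p = 5.45e-05), and Jun by -0.59, 0.06, 0.11, 0.15 and 0.15 (-0.71, SE 0.08, adjusted p = 0.00026). In all, 12 of 39 list members passed this test below 0 and none above by limma, against 3.66% and 3.83% of all genes. The list medians of the plain differences were 0.07, -0.02, 0.05 and -0.03 at days 1, 3, 5 and 7. Members also passed on the later days, with 0, 5, 4 and 5 lower and 0, 1, 6 and 2 higher. The shares of all genes on those days were 0.121%, 2.25%, 2.9% and 1.52% lower and 0.0254%, 2.51%, 5.83% and 4.65% higher. Of the 20 ERK targets and feedback inhibitors, 13 passed the test of day 0 against later days below 0, against 3.66% of all genes. That list had medians of 0.06, 0.18, 0.46 and 0.36 at days 1, 3, 5 and 7.

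Hmox1 differed by 1.32, 0.16, 0.47, 0.14 and 0.09 over the 5 days, a day 0 minus later value of 1.11 (SE 0.14, limma adjusted p = 0.00088). Slc40a1 stood above 0 at first and below it later, with 1.48, 0.24, -0.28, -1.07 and -1.19 (2.05, SE 0.18, adjusted p = 5.45e-05). Mfsd7b, at 0.66, 0.01, -0.22, -0.13 and -0.02, (0.75, adjusted p = 0.0036) and Gclc, at 0.49, -0.23, -0.19, 0.00 and 0.14, (0.56, adjusted p = 0.0021) were higher at day 0 than later as well. Of 37 heme and iron genes 6 passed above 0 and 2 below, and of 39 NRF2 genes 8 above and 1 below. Over all genes 3.83% passed above 0 and 3.66% below, and the members below 0 were near that share. Fibroblast genes passed the same test below 0 in 17 of 47, against 3.66% of all genes. Their list medians were -0.16, -0.03, 0.29, 0.41 and 0.36 from day 0 to day 7.

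**Figure D5:**
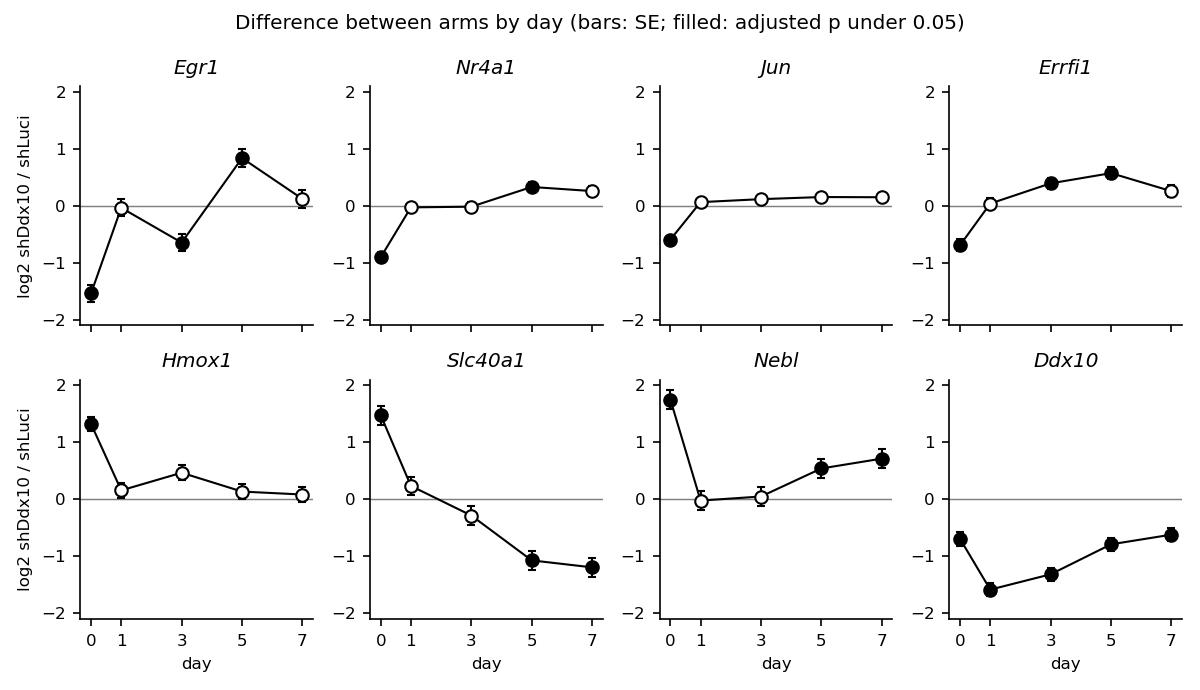
Log2 fold change of shDdx10 over shLuci (y axes) at days 0, 1, 3, 5 and 7 (x axes) for 8 genes; bars are standard errors of the limma fit and filled points have an adjusted p under 0.05. Egr1, Nr4a1, Jun and Hmox1 depart from 0 most at day 0, Slc40a1 runs from 1.48 to -1.19, and Ddx10 is below 0 on every day.

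The largest values of this test among genes with a day 0 mean of at least 50 mixed both origins. Lyrm9 (3.24, SE 0.77, adjusted p = 0.0243), Slc40a1 and Tab3 (1.69, adjusted p = 0.0028) were high at day 0. Lrrc61 (2.92, 0.0361), Gpr155 (1.49, 0.0366) and Slc16a3, a lactate exporter, (1.43, 0.0448) did not pass at day 0 itself, and Slc16a3 differed by -3.53 at day 5 against -0.68 at day 0. At the negative end Egr1 and Eno2 (-1.42, 0.002) were low at day 0, while Siglecg (-1.90, 0.0444), Plau, the urokinase protease, (-1.44, 0.00052), Ctla2a (-1.40, 0.0059) and Shank3 (-1.50, 0.0243) did not pass at day 0, with differences of 3.05, 1.78, 1.06 and 0.56 at day 5.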

How the data were processed

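RNA of 20 libraries was sequenced as paired-end reads after mRNA library preparation, per the labels' protocols. The authors deposited a signal table of normalized read counts, 15757 genes by 20 libraries, on mm10; the submitters' processing notes name Trim Galore 0.4.4, STAR 2.5.2a, RSEM 1.2.22 and DESeq2 1.22.0 without role or order. Low values were whole multiples of 1 step, within 0.1, for 40.2% to 62.9% of values in a library, so reads could not be recovered and a count test was replaced by limma 3.58.1 (R 4.3.3) on log2(value + 1). All 20 libraries were fitted as 10 group means, with 10 residual degrees of freedom, trend and robust settings, and Benjamini-Hochberg adjustment over all genes. Because each arm has 2 libraries at day 0, the spread is borrowed from all days.

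Named genes are Ddx10, the delivered factors, the 14 largest rises and falls with a day 0 mean of at least 50, in each list up to 4 genes of lowest p, and the 6 largest values in each direction of day 0 against later days, apart from genes that are not reported here. Members and lists were chosen with earlier results of these data known. GC content and length came from the longest GENCODE vM21 transcript, found for 15665 genes. In simulated data the day 0 test recovered 44% of 100 genes changed by 0.5 and 84% of 100 changed by 1 on the log2 scale. Alternatives were the pseudocount, scaling, a filter, replicate blocks, day 0 alone, library weights, single libraries left out and, chosen after seeing the data, the GC and length correction and a fit without day 1. Same-numbered libraries did not deviate together (r from -0.0584 to 0.0973 across 14319 genes), so the numbers were not used as pairs.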

Additional observations from a re-analysis of the deposited data

Results flagged for a closer look

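Results are gathered here because the shDdx10 minus shLuci difference at day 0 differed, by a limma contrast over all genes, from the mean of the same difference at days 1, 3, 5 and 7. It did so for 1179 genes (7.48%), of which 76 are named in the text. The values are that limma contrast on the log2 scale, each with an adjusted p under 0.05, and no explanation of them was tested. All are without the GC and length correction. The correlation of the difference with GC content was -0.55 at day 0, against -0.13, -0.03, 0.10 and 0.14 at days 1, 3, 5 and 7. Its part in these values was not tested. Chordc1, Dnaja1, Ddx3x, Ncl, Top1 and Wdr43, among others, did not pass at day 0 itself with the correction.

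Positive values mean a higher difference at day 0 than later. The contrast was 3.24 in Lyrm9, 2.92 in Lrrc61, 2.25 in Steap4, 2.05 in Slc40a1, 1.99 in Gsta3, 1.69 in Tab3 and 1.49 in Gpr155. Next in size it was 1.43 in Slc16a3, 1.43 in Nebl, 1.27 in Aldh3a1, 1.23 in Abcb1a, 1.198 in Zfp667, 1.13 in Zfp2 and 1.11 in Hmox1. It stood at 1.05 in Zfp60, 1.01 in Xaf1, 1.00 in Abca8b, 0.97 in Entpd1, 0.91 in Clk1, 0.82 in Clk4 and 0.75 in Mfsd7b. Further values were 0.66 in Hbb-y, 0.65 in Mphosph10, 0.63 in Hsp90aa1, 0.60 in Kdm3a, 0.56 in Gclc and 0.53 in Nqo1. The contrast was 0.53 in Tek, 0.52 in Chordc1, 0.51 in Ddx3x, 0.49 in Trp53inp1, 0.45 in Top1, 0.45 in Bmpr1a and 0.44 in Hmgcs1. Next in size it was 0.43 in Ncl, 0.41 in Riok2, 0.41 in Dnaja1, 0.40 in Rfc1, 0.39 in Hsph1, 0.37 in Wdr43 and 0.35 in Txnrd1.

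Negative values mean a lower difference at day 0 than later. On this side it was -2.07 in Egr3, -1.90 in Siglecg, -1.70 in Dpt, -1.62 in Oas2, -1.61 in Egr1, -1.50 in Shank3 and -1.44 in Plau. After these it was -1.42 in Eno2, -1.40 in Ctla2a, -1.38 in Adamts14, -1.06 in Tdh, -1.04 in Nr4a1, -1.01 in Errfi1 and -0.84 in Dusp5. Smaller ones were -0.80 in Tnfaip6, -0.78 in Dnm1, -0.75 in Prpf40b, -0.71 in Jun, -0.69 in Junb, -0.68 in Tgfbi and -0.67 in Pidd1. Also below 0 were -0.66 in Ier2, -0.62 in Spry2, -0.62 in Tgfb3, -0.61 in Icam1, -0.58 in Ppp1r15a, -0.58 in Lrrc17 and -0.56 in Csrnp1. On this side it was -0.46 in Phlda1, -0.45 in Uros, -0.43 in Nefm, -0.42 in Gtse1, -0.38 in Pck2, -0.38 in Btg2 and -0.35 in Plk2.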

How the results depend on the processing

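With 2 libraries in an arm, the day 0 calls lean on the spread of other days, and a library left without a partner was assumed to vary like the other groups. The 521 day 0 calls became 304 with quantile scaling, 212 with the GC and length correction, 2 in the day 0 libraries alone, 1226 without the day 1 libraries, and 100 to 530.0 when 1 library was left out. The 1179 calls of day 0 against later days became 307 to 943 when 1 library was left out, with 604 without shLuci replicate 1, and 829 with the correction. The 11 immediate early falls became 7 with quantile scaling, 1 in day 0 alone, 18 without day 1 and 6 to 7 when 1 library was left out. The 5 heme and iron rises became 1 in day 0 alone, 11 without day 1 and 4 to 5 when 1 library was left out. The 8 NRF2 rises became 5 with the replicate block nested in day, 0 in day 0 alone (limma; 2908 of all genes had an unadjusted p under 0.05 there) and 3 to 4 when 1 library was left out. The replicate block gave 448 calls at day 0 and 1011 against later days, and the nested block 503 and 1083. The cause of these moves was not tested, apart from the fewer libraries some fits hold. Of 95 named genes called at day 0, 23 passed in all 14 alternatives other than day 0 alone, and 57 passed with the GC and length correction; none changed sign in an alternative. Depth of about 16.2 M to 20.5 M reads (M, mega) limits genes at a few reads, such as Steap4, Tdh and Gsta3. Their calls were lost when each library was scaled to its sum. That scaling divided values by the sum in M before adding 1, which shrinks low values against the added 1. The loss therefore cannot be laid to depth or to scaling alone, and its cause was not tested.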

Other observations

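Zinc finger genes named Zfp were a further group that stood high at day 0, chosen after their values were seen. Of 337 measured, 24 rose (7.12%) and 0 fell by limma, with a median log2 fold change of 0.23. Their transcripts had a median GC content of 44.8%, and with the GC and length correction 7 rose and the median was 0.12. The medians at days 1, 3, 5 and 7 were 0.06, -0.04, -0.07 and -0.07.

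The CLK kinases, which phosphorylate splicing factors, were also higher in 2 members named after their values were seen. Clk1 had 1016 and 866 normalized read counts in shDdx10 against 550.1 and 579 in shLuci (log2 0.73, limma adjusted p = 0.00641), and Clk4 had 451 and 457 against 293 and 272 (log2 0.68, limma adjusted p = 0.00107). With the GC and length correction Clk1 passed (0.00824) and Clk4 did not (0.06), and Clk1 was lost without shDdx10 replicate 1 (0.0727). Kdm3a, a histone demethylase of the hypoxia list, rose by 0.41 (limma adjusted p = 0.00929; 0.0882 without shDdx10 replicate 1).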
